A study of Mus musculus with 31 samples.

Results

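Masseter muscle (MM), a jaw-closing muscle, was compared between mice injected with a low dose of collagenase type 2 (Col, 0.2U; group 1C) and vehicle-treated mice. The members were taken from the sample labels alone. They are 4 mice labelled 1C and 3 controls of Col that received vehicle, 7 of the 31 mice of the series, and 14493 of 22609 genes had at least 10 counts in at least 3 of these 7 libraries. The study injected Col, a crude enzyme preparation that cleaves collagen, or CFA (complete Freund's adjuvant) into MM and asked which processes in the muscle accompany the phases of orofacial hypersensitivity. All mice were C57BL/6J males, wild type and, by the study's methods, 2 to 4 months old, and each library was made from the dissected MM of 1 mouse. Group 1C received Col (0.2U) into the left MM and the vehicle group received PBS. A further group, RPC (4 mice), received the same dose, and the labels do not give the day on which 1C or RPC was collected. Both are therefore kept here under their labels.

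MM is built mainly of fast-twitch fibers that burn glycogen, and it lies beneath facial skin, beside salivary glands, against the mandible and its teeth, and near the temporomandibular joint. Each of these neighbours has genes that it uses strongly: keratins in epidermis, wax and very-long-chain lipid enzymes in sebaceous glands, collagens II, IX and X in cartilage, amelogenin in enamel-forming cells, amylase in salivary gland. Some of them, such as keratins and lipid enzymes, are shared with other tissues, so their level alone does not name a tissue. Uncoupling protein 1 (Ucp1), which lets brown fat mitochondria release heat, and the ELOVL enzymes, which lengthen fatty acids, are the lipid genes most often read as signs of heat-producing or skin lipid metabolism. Immediate early genes such as Fos and Nr4a1 are switched on within minutes by contraction, cAMP and calcium. Because whole muscle was sequenced, more cells of a type and more RNA per cell cannot be told apart.

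The 4 libraries of 1C held 16450240 to 18299555 reads counted on genes and the 3 vehicle libraries 21284802 to 23862787, so 1C was sequenced less deeply. Levels are given in CPM, counts scaled to library size, with TMM scaling. Genes of the fast fiber were abundant in all 7 libraries, with Acta1 (skeletal actin) at 20100 to 28500 CPM in 1C and 20400 to 42400 CPM in vehicle, and Myh4 (the fastest myosin) at 9820 to 18700 and 15800 to 24300 CPM. Salivary gland genes were not even within either group. Their summed level was 11590, 129.9, 14230 and 116.6 CPM in 1C mice 1 to 4 and 71.8, 56120 and 19870 CPM in vehicle mice 1 to 3, and the 20 most abundant genes took 43.3% of the reads of vehicle mouse 2 against 22.1% to 29.9% in 1C. The same vehicle mouse had the lowest summed level of the bone, collagen, neutrophil and macrophage lists among the 7 mice, with 237.3 CPM for bone genes against 3053 and 2584 CPM in the other two.

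The data showed skin and sebaceous lipid genes, cartilage genes and enamel genes at far higher levels in most or all 1C mice than in vehicle, and several immediate early and glycogen-handling genes at lower levels. Different mice carried these differences. Sebaceous genes, Elovl4 and Ucp1 were high in 1C mice 1, 3 and 4 and inside or closer to the vehicle range in mouse 2. The summed epidermal level was above vehicle in all 4 and lowest in mouse 2. Most enamel genes were high in mice 2, 3 and 4, cartilage genes were high in all 4, and Nr4a1, a nuclear receptor induced by contraction, was low in all 4.

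With edgeR's quasi-likelihood test and Benjamini-Hochberg adjustment over 14493 genes, 0 genes (0%) were called. A call needed an adjusted p under 0.05 with more than a 2-fold difference and, in either group, a mean above 1 RPKM (reads per length and library size), and the smallest adjusted p was 0.105, for Col10a1. At an unadjusted p under 0.05, 988 genes were higher in 1C (6.82% of those tested) and 831 were lower (5.73%). The values of the 4 and 3 mice did not overlap for 631 genes that were higher (4.35%) and 784 that were lower (5.41%). DESeq2's Wald test called 259 genes higher (1.79%) and 39 lower (0.269%) by the same thresholds. The edgeR count depended on single mice. Without 1C mouse 2 it was 156 higher and 10 lower, without 1C mouse 1 it was 10 higher and 0 lower, and without any 1 of the other 5 mice it stayed at 0. Of the 988 genes, 572 (57.9%) had their lowest 1C value in mouse 2, against 27.8% of all genes tested, and of the 831 genes that were lower, 533 (64.1%) had their highest 1C value in mouse 2, against 32.6% of all. Since edgeR calls no gene, counts below are at an unadjusted p under 0.05 and are to be read against these background shares. The background itself moved with the mouse left out. Higher genes numbered 977, 1293, 624 and 665 without 1C mice 1 to 4, and 556, 811 and 1699 without vehicle mice 1 to 3. Lower genes numbered 486, 897, 341 and 406, and 395, 525 and 1569. List counts with a mouse left out are to be read against these. A gene near 0 in vehicle can pass the count filter through 1C alone, and the list counts and medians below include such genes.

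**Figure D1:**
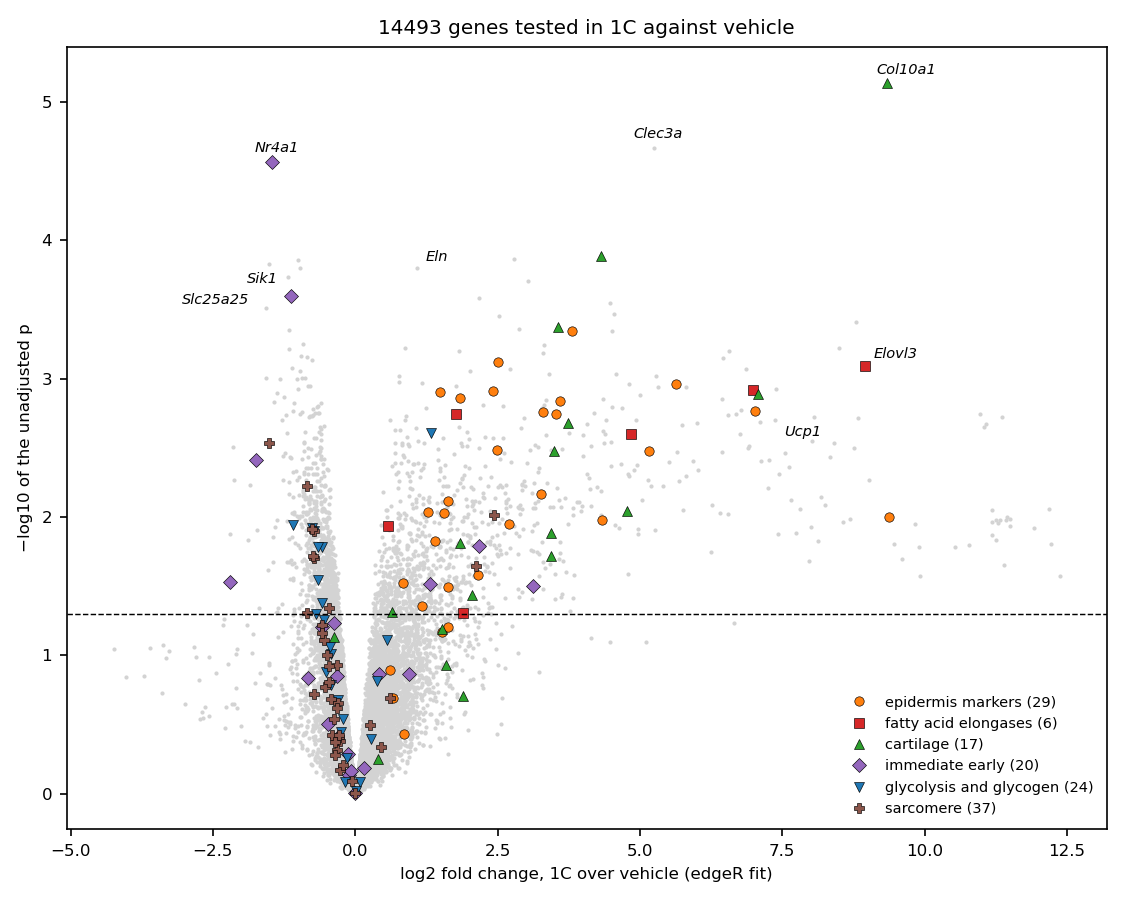
Each point is 1 of 14493 genes, with the log2 fold change of 1C over vehicle on the x axis and the −log10 of the unadjusted value from edgeR's test on the y axis, and the dashed line marks 0.05. Coloured symbols mark members of 6 gene lists, and all epidermis and elongase members and 16 of 17 cartilage members lie to the right of 0 while most sarcomere and glycolysis members lie to the left of 0. Positions far to the right belong to genes with few or no vehicle counts and depend on the fit.

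Fatty acid elongases were higher in 1C. Of 7 ELOVL elongases, 6 passed the count filter and all 6 were higher in 1C at p under 0.05, 4 of them without overlap, and their median log2 fold change was 3.37, where that of all genes was 0.01. With any 1 of the 7 mice left out, 5 or 6 were higher at p under 0.05. Elovl4, which makes the very-long-chain fatty acids of skin and retina, was at 510, 5.83, 350 and 540 CPM in 1C mice 1 to 4 and at 2.64, 3.39 and 2.4 CPM in vehicle. Mouse 2 lay just above the vehicle range and the other three far above it. The log2 fold change was 6.99 ± 1.42 (SE, edgeR, adjusted p = 0.246).

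Elovl3, an elongase of brown fat and sebaceous gland, was at 53.1, 0.548, 39.6 and 49.3 CPM in 1C and at 0.091, 0.0652 and 0.0453 CPM in vehicle. All 4 mice were above vehicle, with mouse 2 far below its group mates. The vehicle libraries held 1 or 2 counts each, which gives a ratio of summed counts of 525 (exact 95% interval 205 to 1930, covering counting error only), and edgeR's adjusted p was 0.246. Elovl6, which lengthens palmitate, was at 372, 10.2, 275 and 372 CPM in 1C and 6.01, 9.39 and 11.7 CPM in vehicle, where mouse 2 fell inside the vehicle range. Elovl1 (log2 fold change 1.76 ± 0.38, adjusted p = 0.246 in edgeR) and Elovl5 (0.58 ± 0.18, adjusted p = 0.283) did not overlap with vehicle, and Elovl7 (1.89 ± 0.81, adjusted p = 0.397) did.

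The summed level of the elongases was 1127, 99.7, 840.1 and 1140 CPM in 1C against 66.5 to 87.4 CPM in vehicle and 101.9 to 133.6 CPM in RPC. In the 24 mice of the series outside 1C and vehicle it was at most 163.3 CPM, so 1C mice 1, 3 and 4 exceeded every one of them. These 24 are the mice of RPC, of CFA and its vehicle, and of Col at 10U. Their treatments differ, and so do the libraries. Reads that could not be given to a single gene were at least 0.559% of uniquely aligned reads at 10U and at most 0.259% in 1C. Levels in these mice are given as description only. In the direct edgeR comparison of 1C with RPC, Elovl4 had a log2 difference of 5.93 ± 1.23 (adjusted p = 0.245) and Elovl3 of 5.33 ± 1.12 (adjusted p = 0.245).

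Enzymes that join or use these long chains were higher in the same mice. Of 18 genes tested for very-long-chain and sphingolipid synthesis, 11 were higher at p under 0.05 and 0 lower, with a median log2 fold change of 1.64 (8 to 11 higher with any 1 mouse left out); elongases belong to this list too. Its epidermal lipoxygenase Alox12e and Sptlc3, a subunit of the enzyme that begins sphingolipid synthesis, were at 35.6, 0.399, 17.8 and 31.4 CPM and 6.15, 0.249, 4.82 and 8.59 CPM in 1C and at most 0.815 and 0.391 CPM in vehicle. Mouse 2 lay inside the vehicle range for both.

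The summed level of the hair follicle and sebaceous list showed the same order. Of its 26 genes 9 were tested, and 5 of them were higher and 1 lower at p under 0.05. With any 1 mouse left out 2 to 7 were higher, fewest without 1C mouse 1 or 3 (7 tested) and most without 1C mouse 2 (9 tested). Without the count filter 8 of 22 were higher, and with a stricter one 1 of 5. Members near 0 in vehicle, such as Awat1, passed the filter only through 1C. The hair keratins Krt27, Krt28, Krt71 and Krt73 held 7, 24, 13 and 16 counts over the 1C libraries and 3, 0, 4 and 3 in vehicle, too few to be tested. Awat1, which makes the wax esters of sebum, was at 42.5, 0.0498, 25.3 and 33.6 CPM in 1C and 0.137, 0 and 0.226 CPM in vehicle. Far2, which makes the fatty alcohols for these waxes, was at 123, 0.947, 119 and 144 CPM against 0.455, 0.326 and 1.27 CPM. For both, mouse 2 lay within the vehicle range and the groups overlapped, and DESeq2 called both (adjusted p = 0.00113 and 1.71e-05). The summed level of the list was 300.1, 31, 273.8 and 269.6 CPM in 1C, 30.2 to 66.9 CPM in vehicle and at most 96.9 CPM in the other 24 mice.

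Brown fat genes were split. Of 21 tested, 9 were higher and 0 lower at p under 0.05, with 5 apart from vehicle and a median log2 fold change of 0.75 (7 to 11 higher with any 1 mouse left out). The markers include Elovl3, counted above among the elongases. The largest log2 fold change, 9.02, was that of Slc27a2, which was high mainly in 1C mouse 1. The summed level overlapped, at 1584, 1103, 930.9 and 1757 CPM in 1C and 1121, 1046 and 614.1 CPM in vehicle, with RPC at 922.6 to 1663 CPM. Ucp1 was at 214, 5.38, 164 and 409 CPM in 1C and 0.0455, 1.5 and 2.04 CPM in vehicle. The groups did not overlap, and mouse 2 was by far the lowest of its group. The log2 fold change was 7.38 ± 1.63 (SE, edgeR, adjusted p = 0.246). Cidea, a lipid droplet protein of brown fat, showed 156, 5.98, 107 and 321 CPM in 1C against 0.637, 2.74 and 3.53 CPM in vehicle (adjusted p = 0.251 in edgeR). Dio2, which activates thyroid hormone in brown fat, was at 25.5, 5.98, 29.7 and 69.3 CPM against 3.78, 2.48 and 6.7 CPM, and overlapped with vehicle in mouse 2. The brown fat lineage markers Zic1 (0.286 to 0.947 CPM in 1C, 0.364 to 1.13 CPM in vehicle) and Lhx8 (0.439 to 5.03 and 0.457 to 1.78 CPM) overlapped between the groups. The highest Lhx8 value of 1C was above all 24 other mice of the series, which had at most 4.63 CPM. Cox8b and Cox7a1, respiratory subunits shared by brown fat and muscle, had log2 fold changes of -0.37 ± 0.53 and -0.45 ± 0.38 (edgeR, adjusted p = 0.779 and 0.634) with overlapping values.

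Ucp1 was also above vehicle in RPC, at 87.5, 127, 112 and 43.1 CPM in mice 1 to 4, and so was Cidea, at 56.9, 43.1, 40.6 and 17.6 CPM. Among the elongases in RPC, Elovl6 was at 23.7 to 30.5 CPM and Elovl3 at 0.421 to 1.27 CPM, both above every vehicle mouse, and Elovl4 was at 1.73 to 10.5 CPM. The direct edgeR difference between 1C and RPC was 1.09 ± 0.90 on the log2 scale for Ucp1 (adjusted p = 0.718), an SE too wide to tell a difference of several fold from none. Among the other uncoupling genes, Ucp2 was higher without overlap (121 to 166 CPM in 1C, 57.6 to 115 CPM in vehicle, log2 fold change 0.70 ± 0.26, edgeR adjusted p = 0.350). Ucp3, the muscle form, was at 62.3 to 149 CPM in 1C and 66.5 to 156 CPM in vehicle (log2 fold change -0.02 ± 0.38). Slc25a27, a carrier of brain, was at 5.03 to 6.98 against 7.63 to 9.01 CPM (edgeR adjusted p = 0.446), and Slc25a14 was at 1.32 to 2.29 and 1.22 to 2.23 CPM.

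General fat cell genes were higher by less. Of 18 adipocyte markers, 10 were higher and 0 lower at p under 0.05, with a median log2 fold change of 1.01, but only 2 did not overlap. The count was 3 without vehicle mouse 1, 4 without 1C mouse 1 or 4, 5 without vehicle mouse 2, 6 without 1C mouse 3 and 14 without 1C mouse 2. The 2 genes apart from vehicle were Pparg, the regulator of fat cell formation (30.2, 10.7, 25.5 and 42.7 CPM in 1C, 6.28, 8.61 and 6.34 CPM in vehicle), and Agpat2, an enzyme of triglyceride synthesis (37.7, 9.32, 21.1 and 58.8 against 7.56, 5.81 and 7.61 CPM). Both were lowest in mouse 2 within 1C. Adiponectin (Adipoq) was at 121, 25.8, 86.9 and 149 CPM in 1C and 19.5, 30.3 and 53.4 CPM in vehicle. Of 22 genes of fatty acid synthesis, 11 were higher and 0 lower, among them Scd1, which desaturates stearate, at 2780, 212, 1440 and 4570 CPM against 154, 265 and 611 CPM, and fatty acid synthase (Fasn) at 660, 78.7, 393 and 1280 CPM against 68.5, 72.9 and 243 CPM. Mouse 2 lay inside the vehicle range for each, and the 11 became 4 without vehicle mouse 1, 5 without 1C mouse 4, 6 without vehicle mouse 2 and 7 without 1C mouse 1. No gene of 28 for fatty acid oxidation reached p under 0.05 in edgeR (0 higher, 0 lower), and DESeq2 called 0 of them, while without 1C mouse 2 edgeR put 4 higher.

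**Figure D2:**
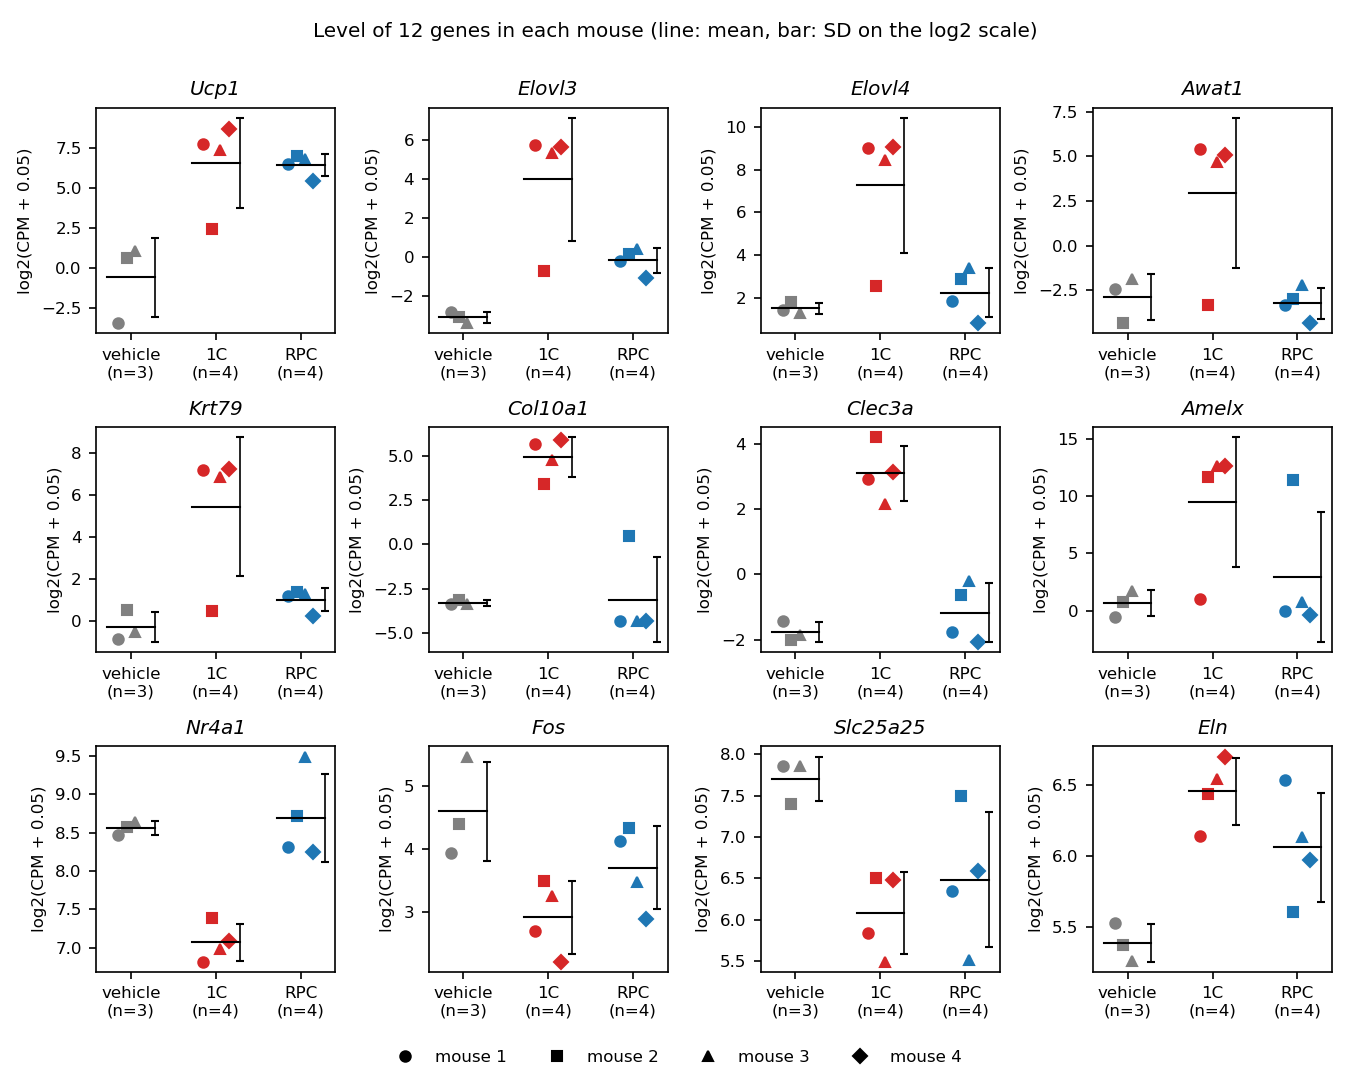
Each symbol is 1 mouse, with the level as log2(CPM + 0.05) on the y axis and the group on the x axis, the horizontal line being the group mean and the vertical bar its SD on that scale. 1C mouse 2 (square) lies apart from its group for Ucp1, Elovl3, Elovl4, Awat1 and Krt79 and mouse 1 (circle) for Amelx, while all 4 mice of 1C lie above vehicle for Col10a1, Clec3a and Eln and below it for Nr4a1, Fos and Slc25a25.

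Epidermal genes leaned one way. All 29 tested had a positive log2 fold change, 24 at p under 0.05 and 13 without overlap, DESeq2 called 19, and the median log2 fold change was 2.15. With any 1 mouse left out, 19 to 26 of the members tested were higher at p under 0.05. Krt79, a keratin of the sebaceous duct, was at 145, 1.35, 118 and 152 CPM in 1C and 0.501, 1.37 and 0.634 CPM in vehicle, so mouse 2 fell inside the vehicle range (log2 fold change 7.02 ± 1.51, edgeR adjusted p = 0.246). Krt14, a keratin of basal epidermal cells, was at 134, 22, 132 and 163 CPM against 5.42, 25.7 and 4.39 CPM. Krt77 was at 6.15, 0, 3.58 and 6.97 CPM in 1C with no count in vehicle, a mean at least 26.8-fold above the floor of 3 counts per library.

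Some epidermal genes were high in mouse 2 as well. Krt10, a keratin of the differentiating layers, was at 77.4, 163, 54.8 and 175 CPM in 1C and 29.7, 62.2 and 39.8 CPM in vehicle, and Krt1, its partner, at 36.5, 75.2, 27.1 and 86.6 CPM against 12.4, 26.5 and 18.2 CPM. For these, mouse 2 was the second highest of its group. Lor, which hardens the outermost layer, did not overlap (8.62, 8.42, 5.19 and 10.5 against 2.69, 5.09 and 2.31 CPM). Spink5, a protease inhibitor of the skin barrier outside the list, was higher in all 4 (14.7, 6.88, 8.92 and 13.6 CPM against 1.41, 2.28 and 1.18 CPM, log2 fold change 2.78 ± 0.40, edgeR adjusted p = 0.246). The summed epidermal level was 1387, 661.9, 1132 and 1657 CPM in 1C, 169.7 to 492.6 CPM in vehicle, 321.3 to 1369 CPM in RPC, and 1 of the 24 other mice exceeded the lowest 1C mouse. Krt79 and Krt14 followed the order of the lipid genes above, with mouse 2 lowest, while Krt10 and Krt1 did not, and the part that skin or sebaceous tissue in the dissection had in the lipid genes was not tested.

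Cartilage genes were higher in every 1C mouse. Of 17 tested, 12 were higher and 0 lower at p under 0.05, 11 without overlap, with a median log2 fold change of 3.44 (9 to 13 higher with any 1 mouse left out). Some members, such as Col10a1 and Ucma, had almost no vehicle counts and passed the count filter only through 1C. Without the filter 14 of 20 were higher with a median of 2.19, and with a stricter one 11 of 15 with a median of 3.45. Col10a1, the collagen of hypertrophic cartilage, had the smallest p of all genes. It was at 50.4, 10.5, 26.5 and 57.7 CPM in 1C mice 1 to 4 and 0.0455, 0.0652 and 0.0453 CPM in vehicle, a single count per vehicle library. The lowest 1C mouse was far above the highest vehicle mouse. The ratio of summed counts was 718 (exact 95% interval 245 to 3480, counting error only), with an edgeR adjusted p of 0.105. None of the 24 other mice of the series reached the lowest 1C mouse, and their highest value was 2.4 CPM.

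Clec3a, a C-type lectin of cartilage that is not in the list, was at 7.47, 18.3, 4.41 and 8.64 CPM in 1C and 0.319, 0.196 and 0.226 CPM in vehicle, with its highest value in mouse 2 (log2 fold change 5.25 ± 0.59, edgeR adjusted p = 0.132). The 3 chains of collagen IX, which coats collagen II fibrils, were higher without overlap. Col9a2 was at 10.9, 6.73, 28.2 and 28.1 CPM against 0.865, 1.11 and 0.86 CPM (log2 fold change 4.31 ± 0.62, edgeR adjusted p = 0.246), Col9a3 at 3.79 to 14.6 against 0.41 to 0.913 CPM, and Col9a1 at 0.934 to 1.89 against 0 to 0.319 CPM. The defining cartilage genes Col2a1 (20.8, 182, 19.9 and 35.1 against 11.1, 0.326 and 6.16 CPM) and Acan (95.5, 19.6, 49 and 138 against 11.1, 0.196 and 9.92 CPM) did not overlap either, although their highest mice differed. Lect1 and Ucma, also cartilage genes, were instead lowest in mouse 2 (0.548 and 0.0498 CPM). Matn1 had at most 0.0549 CPM in any of the 7. The summed cartilage level was 563, 585.3, 639.7 and 929 CPM in 1C and 318.3, 111.9 and 295.8 CPM in vehicle, and no other mouse of the series exceeded 427.4 CPM.

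Cartilage genes were also higher in 1C than in RPC, by 4.39 ± 0.60 on the log2 scale for Clec3a and 3.60 ± 0.82 for Col9a2 (edgeR, adjusted p = 0.245 and 0.251). In that direct comparison 14570 genes were tested and edgeR called 0 (0%), with 892 higher and 566 lower in 1C at p under 0.05, and DESeq2 called 144 higher and 61 lower. Without 1C mouse 2 the edgeR count was 116 higher and 2 lower. RPC held Col10a1 at 0, 1.34, 0 and 0 CPM and Clec3a at 0.241, 0.596, 0.827 and 0.187 CPM.

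Bone genes differed less clearly. Of 19 tested, 18 had a positive log2 fold change with a median of 1.03, but 1 was higher and 0 lower at p under 0.05 (1 to 4 higher with any 1 mouse left out). That gene was Phex, a phosphate regulator of bone and teeth (2.53, 20.8, 53.8 and 44.4 CPM in 1C, 1.46, 0.261 and 4.08 CPM in vehicle). Col1a1, the main bone and tendon collagen, was at 1310, 2940, 3000 and 3240 CPM against 2360, 142 and 1660 CPM, and Bglap (osteocalcin) at 12.4 to 47.1 against 1.63 to 19.9 CPM. Vehicle mouse 2 was the lowest of the 7 for both. Of 10 tendon genes, 1 was higher at p under 0.05, Egr2, which is also an immediate early gene, and Scx, the tendon regulator, was at 3.63 to 7.57 CPM in 1C and 4.76 to 11.1 CPM in vehicle. Without vehicle mouse 2, 3 tendon genes were lower.

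Enamel and dentin genes were examined after their values had been seen, because of their size in 1C, so they are described without a test of the list. Amelx (amelogenin, the main enamel matrix protein) was at 2.03, 3200, 6240 and 6520 CPM in 1C mice 1 to 4 and 0.637, 1.7 and 3.17 CPM in vehicle. Mouse 1 lay inside the vehicle range and mice 2 to 4 far above it. Ambn (ameloblastin) showed 0.989, 1490, 2290 and 2210 CPM against 0.273, 1.17 and 0.815 CPM. Enam (enamelin) was at 0.11, 245, 629 and 608 CPM and Dspp, the dentin phosphoprotein, at 0.384, 273, 1010 and 918 CPM, with vehicle at most 0.261 and 0.317 CPM. Mmp20, the protease of developing enamel, had 0, 17, 56.2 and 43.7 CPM in 1C and no count in vehicle, a mean at least 187-fold above the floor of 3 counts per library. Of the 7 members tested, 6 had a positive log2 fold change and Odam a negative one (-1.22). Odam reached 5.6 CPM in 1C, in mouse 3, and 4 of the 24 other mice were above that. For Amtn, 1 of them was above the highest 1C mouse. Klk4 had a mean of 0.652 CPM in 1C and no count in vehicle.

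Mmp20 also belongs to the matrix proteases. Of 28 proteases and inhibitors tested, 4 were higher and 0 lower at p under 0.05, or 2 without 1C mouse 3 or 4 and 7 without vehicle mouse 3. Mmp12, the macrophage elastase, did not overlap (3.13, 1.69, 1.35 and 6.59 CPM in 1C, 0.137, 0.0652 and 0.181 CPM in vehicle). Outside the enamel list, the Wnt ligand Wnt3a (0.22, 0.997, 2.75 and 2.58 CPM, no count in vehicle, at least 10.5-fold) and the homeobox gene Msx2 (0.11, 2.09, 18 and 8.26 against 0.0652 to 0.498 CPM) shared the order of the enamel genes, with mouse 1 lowest. RPC mouse 2 had 2660 CPM of Amelx and the other RPC mice 0.701 to 1.65 CPM. The part of enamel-forming tissue in Mmp20, Phex, Wnt3a and Msx2 was not tested.

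**Figure D3:**
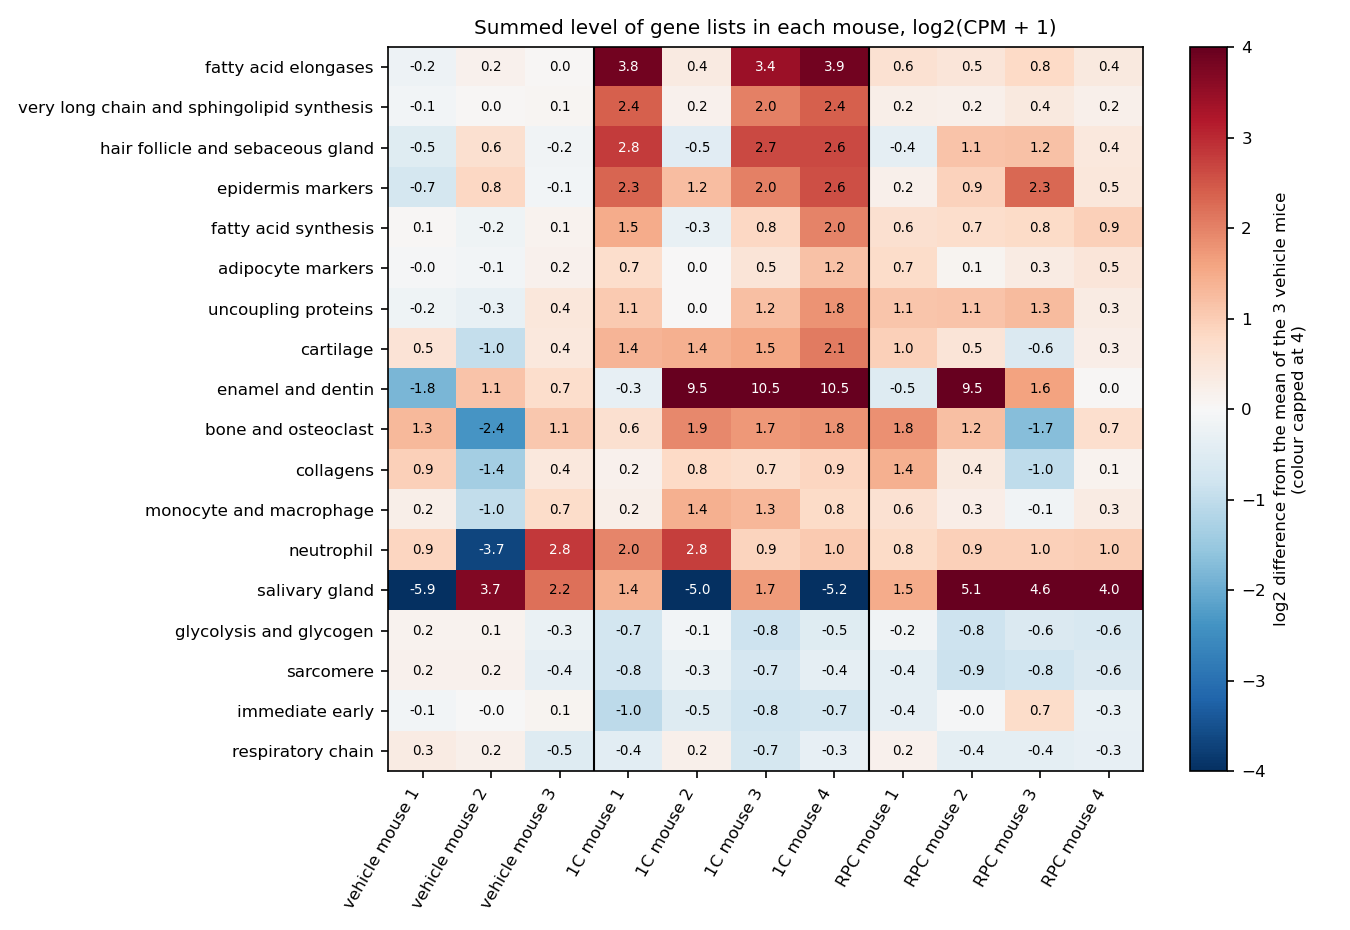
Each cell is the summed level of a gene list in 1 mouse as log2(CPM + 1), minus the mean of the 3 vehicle mice, with rows for 18 lists and columns for the vehicle, 1C and RPC mice. The elongase and sebaceous rows are high in 1C mice 1, 3 and 4, the epidermis row is positive in all 4 mice of 1C and lowest in mouse 2, the enamel row is high in 1C mice 2, 3 and 4 and in RPC mouse 2, and the cartilage row is positive in all 4 mice of 1C.

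Among structural matrix genes, elastin (Eln) was at 70.5, 86.5, 93.2 and 104 CPM in 1C and 46, 41.4 and 38.3 CPM in vehicle (log2 fold change 1.09 ± 0.16, edgeR adjusted p = 0.246). No 1C mouse overlapped with vehicle. Of 42 collagens tested, 12 were higher and 0 lower at p under 0.05, and 9 did not overlap, with a median log2 fold change of 0.34. Those 12 included Col10a1 and the chains of collagen IX, while the fibril collagen Col1a2 was at 1540 to 2900 CPM against 265 to 2880 CPM. Of 26 matricellular and crosslinking genes, 6 were higher and 1 lower, or 2 and 3 without vehicle mouse 2 and 9 and 0 without 1C mouse 1 or vehicle mouse 3. Fbn2, a microfibril protein of growing tissue, was at 1.32, 4.73, 24.9 and 11.2 CPM against 1.32, 0.13 and 0.679 CPM, and the proteoglycan versican (Vcan) at 11.8, 16.7, 76.4 and 37.2 CPM against 10.4, 3.85 and 12.3 CPM. Both were highest in mouse 3 and near vehicle in mouse 1.

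Macrophage genes leaned higher in 1C mice 2 and 3. All 24 markers had a positive log2 fold change, 6 of them at p under 0.05 (2 without overlap, median log2 fold change 0.71), and 3 without 1C mouse 3 or vehicle mouse 1 and 11 without vehicle mouse 3. Fcgr1, the high-affinity IgG receptor of monocytes, was at 2.53, 7.28, 13.4 and 3.77 CPM in 1C and 1.27, 0.979 and 1.99 CPM in vehicle. Cd68, a lysosomal protein of phagocytes, was at 10.4, 28.9, 52.3 and 30.8 CPM against 8.24, 1.76 and 14.5 CPM. Csf1r, the receptor that all macrophages need, was at 39 to 57 CPM in 1C and 21 to 57.9 CPM in vehicle (log2 fold change 0.19 ± 0.31, edgeR adjusted p = 0.808). Vehicle mouse 2 was the lowest of the 7 for all 3 of these genes.

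Of 22 chemokines tested, 6 were higher and 0 lower at p under 0.05, and 3 without 1C mouse 2. Ccl2 and Ccl7, which draw monocytes, were at 0.934, 13.4, 16.1 and 2.62 CPM and 0.33, 5.53, 14.5 and 2.43 CPM in 1C, and at 0.196 to 0.728 and 0.261 to 0.319 CPM in vehicle. Neither overlapped, and both were highest in mouse 3 and closest to vehicle in mouse 1. The stress genes Hmox1 (17.4, 60.7, 91 and 24 CPM), Mt2 (17.4, 45.6, 84.1 and 25.9 CPM) and Ankrd2 (15.6, 62.6, 82.4 and 30.3 CPM) had the same order over the 4 mice of 1C. That order alone does not set them above vehicle. Of 25 atrophy and stress genes tested, 7 were higher and 1 lower at p under 0.05. With any 1 mouse left out 2 to 7 were higher, fewest without vehicle mouse 1, and in 1 fit of all 31 libraries 1 was. The summed level of this list overlapped, at 1680 to 2636 CPM in 1C and 1987 to 3046 CPM in vehicle.

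Neutrophil genes gave no such difference. Of 16 tested, 0 had an edgeR p under 0.05 in either direction and DESeq2 called 0, and the median log2 fold change was 0.16, but without vehicle mouse 3, which had the highest summed level of the 7, 5 were higher and the median was 2.07. S100a9, an abundant neutrophil protein, was at 134, 483, 85.1 and 98.4 CPM in 1C and 121, 3.91 and 415 CPM in vehicle, so that vehicle mice 2 and 3 spanned nearly the whole range. No gene of 9 for lymphocytes or 7 for mast cells reached p under 0.05 by edgeR, nor was any called by DESeq2. Without vehicle mouse 3, 3 of 7 lymphocyte genes were higher and their median log2 fold change went from 0.53 to 1.66, and without 1C mouse 3, 1 mast cell gene was lower. Of 20 pain mediators and channels, 1 was higher and 1 lower (2 higher without 1C mouse 4 or vehicle mouse 2 or 3). Trpv4, a cation channel gated by stretch and warmth, was at 7.03, 9.47, 11.4 and 10.5 CPM in 1C and 4.1, 4.18 and 4.53 CPM in vehicle (log2 fold change 1.18 ± 0.23, edgeR adjusted p = 0.246), and Nos2, the inducible nitric oxide synthase, at 7.19 to 10.8 against 11 to 18.7 CPM. Neither overlapped.

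**Figure D4:**
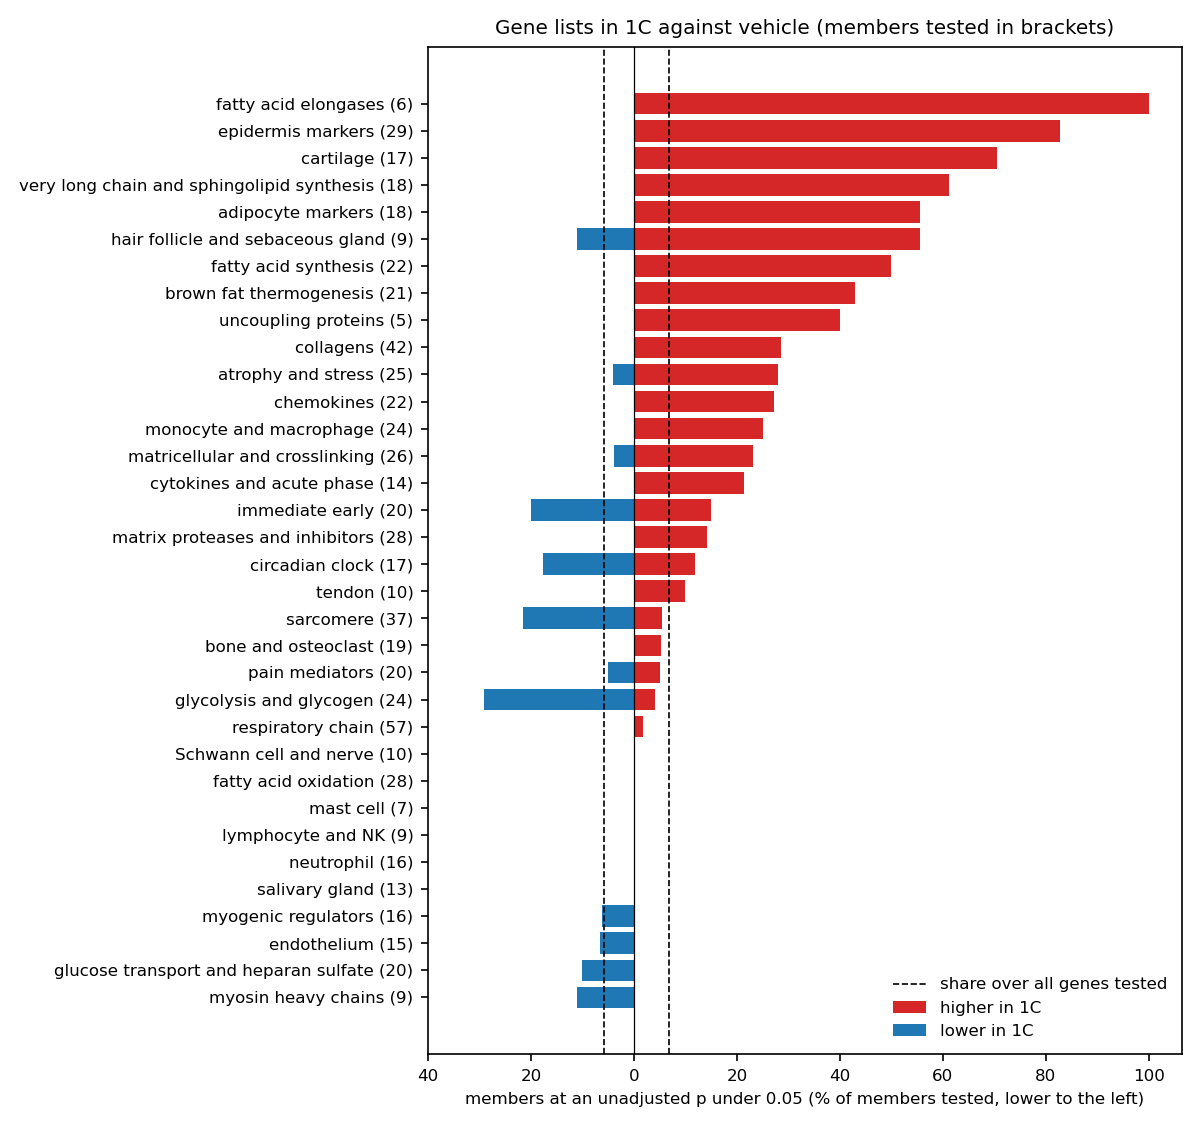
Bars give the share of each list's tested members with an edgeR unadjusted p under 0.05, higher in 1C to the right and lower to the left, with the number tested in brackets. The dashed lines are the shares over all genes tested, 6.82% higher and 5.73% lower, and the longest bars to the left are those of glycolysis, sarcomere and immediate early genes.

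On the lower side, Nr4a1 had the smallest p. It was at 113, 168, 127 and 136 CPM in 1C mice 1 to 4 and 354, 381 and 399 CPM in vehicle. The groups were far apart, with little spread within either. The log2 fold change was -1.47 ± 0.17 (SE, edgeR, adjusted p = 0.132). Fos, a subunit of the transcription factor AP-1, was at 6.43, 11.2, 9.49 and 4.58 CPM against 15.2, 21 and 44 CPM (-1.75 ± 0.43, adjusted p = 0.256 in edgeR). Sik1, a kinase induced by cAMP that is not in the immediate early list, was at 18, 25.7, 23.9 and 23.3 CPM against 61.8, 40 and 54.4 CPM. Dusp1, a phosphatase that limits MAP kinases and was singled out after its values were seen, was at 54.8, 77.6, 46.8 and 59.4 CPM against 125, 145 and 123 CPM.

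Not every immediate early gene was lower. Of 20 tested, 4 were lower and 3 higher at p under 0.05, 5 were lower without overlap (Nr4a1, Fos, Dusp1, Jun and Fosl2), and the median log2 fold change was -0.22. With any 1 mouse left out 3 to 5 were lower, and 0 were higher without vehicle mouse 1 and 1 without 1C mouse 4. The higher ones were Egr2, Egr3 (3.3, 1.59, 7.21 and 7.45 against 0.391 to 1.95 CPM) and Fosl1, which was at 3.11 CPM or less in 1C. RPC held Nr4a1 at 317, 419, 719 and 303 CPM, so 1C was below RPC too, by 1.71 ± 0.29 on the log2 scale in the direct edgeR comparison (adjusted p = 0.245). Fos was at 17.3, 20.1, 11 and 7.34 CPM in RPC and overlapped with 1C. In the 24 other mice Nr4a1 ranged from 33.3 to 719 CPM, and 14 of them were below the highest 1C mouse.

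Slc25a25, a calcium-sensitive ATP-magnesium carrier of mitochondria, was lower in the same way, at 57.3, 91, 45 and 89.1 CPM in 1C against 233, 169 and 232 CPM in vehicle (-1.57 ± 0.26, edgeR adjusted p = 0.246). Promoters of several genes picked for their low values in 1C were read for the cAMP response element. Those of Nr4a1, Fos, Dusp1 and Slc25a25 are shown. The 250 bases before the RefSeq start (GRCm38.p6) are printed 5′ to 3′ on the strand of the gene, and capitals mark the half-site TGACG or its reverse complement CGTCA. Where both overlap they form the full site TGACGTCA.
Nr4a1, chr15:101266596-101266845, plus strand: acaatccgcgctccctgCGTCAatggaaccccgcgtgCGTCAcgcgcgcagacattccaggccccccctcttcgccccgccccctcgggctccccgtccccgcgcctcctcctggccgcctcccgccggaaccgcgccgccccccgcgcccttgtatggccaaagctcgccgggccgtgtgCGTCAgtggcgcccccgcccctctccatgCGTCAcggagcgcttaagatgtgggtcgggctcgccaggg
Fos, chr12:85473640-85473889, plus strand: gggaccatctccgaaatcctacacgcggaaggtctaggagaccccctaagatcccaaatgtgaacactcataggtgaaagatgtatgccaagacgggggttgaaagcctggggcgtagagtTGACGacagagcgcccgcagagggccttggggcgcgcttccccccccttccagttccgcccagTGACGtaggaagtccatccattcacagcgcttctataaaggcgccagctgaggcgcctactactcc
Dusp1, chr17:26508473-26508722, minus strand: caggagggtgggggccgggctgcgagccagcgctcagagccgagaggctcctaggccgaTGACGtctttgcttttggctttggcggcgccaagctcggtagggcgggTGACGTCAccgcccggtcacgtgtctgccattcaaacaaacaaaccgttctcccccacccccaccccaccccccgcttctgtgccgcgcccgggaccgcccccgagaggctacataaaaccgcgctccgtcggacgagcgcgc
Slc25a25, chr2:32424067-32424316, minus strand: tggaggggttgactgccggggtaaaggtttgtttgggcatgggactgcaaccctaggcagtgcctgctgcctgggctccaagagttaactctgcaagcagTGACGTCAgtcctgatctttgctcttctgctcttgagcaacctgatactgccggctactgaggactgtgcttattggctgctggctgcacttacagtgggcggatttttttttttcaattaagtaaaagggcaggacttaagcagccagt

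Nr4a1 held 4 half-sites in this window, Fos 2 and Dusp1 3, of which an overlapping pair forms 1 full site. Slc25a25 has 3 RefSeq starts, and the one shown holds a full site while the windows of the other two hold no half-site. Of 32851 promoters in the RefSeq table, 17.8% hold at least 1 half-site on either strand, 3.9% hold 2 or more, and 1.55% hold the full site. Among the other immediate early genes, Fosb (0.824 to 1.61 against 1.24 to 14.9 CPM) has 1 half-site in its window, and Jun (50.1 to 117 against 134 to 136 CPM) has 0. Apold1, also lower without overlap, has 1 half-site and no full site. Sik1 and Bcl6b had no promoter in the RefSeq table, and that of Fosl2 was not read. Since the genes and the Slc25a25 start were picked, the shares over all promoters are no test of them. A match is a description of these letters, and binding was not measured.

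Several glycogen and glycolysis genes were lower. Of 24 tested, 18 had a negative log2 fold change, 7 were lower and 1 higher at p under 0.05, 7 did not overlap and were lower, and the median log2 fold change was -0.42. The 7 became 2 without 1C mouse 3, 3 without 1C mouse 1 and 4 without vehicle mouse 1 or 2, and the median stayed negative (-0.59 to -0.30). Over all genes the lower count also fell in these settings, from 831 to 341, 486, 395 and 525 in that order. Pygm, the muscle glycogen phosphorylase, was at 2910, 4670, 3410 and 4290 CPM in 1C and 6530, 6240 and 5330 CPM in vehicle. Pgm2, a phosphoglucomutase, was at 646, 955, 635 and 863 CPM against 1300, 1470 and 1080 CPM, and Phkg1, the catalytic subunit of phosphorylase kinase, at 315, 537, 326 and 423 CPM against 715, 765 and 551 CPM. None of the 3 overlapped, and all were highest in mouse 2 within 1C. Pfkfb3, which makes the activator of phosphofructokinase, was lower (427, 202, 255 and 249 against 459, 528 and 846 CPM). Pfkl, the liver form of phosphofructokinase, was the exception and was higher in all 4 (42.9, 28.3, 43.8 and 71 against 17.1, 21 and 17.9 CPM).

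Of 20 genes for glucose transport and heparan sulfate, 2 were lower and 0 higher, both without overlap (4 lower without vehicle mouse 3). The glucose transporter Slc2a3 was at 11.1, 19.3, 8.87 and 9.88 CPM against 33.7, 28.3 and 31.2 CPM (log2 fold change -1.33 ± 0.26, edgeR adjusted p = 0.246). Hs3st5, a heparan sulfate sulfotransferase, was at 4.39, 5.83, 2.39 and 3.48 CPM against 12.7, 9.26 and 10.9 CPM (-1.43 ± 0.30, adjusted p = 0.246). In RPC they were at 6.28 to 21.9 and 1.93 to 5.25 CPM. Slc2a4, the insulin-responsive transporter of muscle, overlapped (453 to 1040 against 700 to 1310 CPM).

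Contractile genes leaned the same way. Of 37 sarcomere genes tested, 31 had a negative log2 fold change, 8 were lower and 2 higher at p under 0.05, and 10 were lower without overlap, with a median of -0.38. The 8 became 3 without 1C mouse 3, 4 without vehicle mouse 1 and 5 without 1C mouse 1 or 4 or vehicle mouse 2. Mylk2, the kinase of fast muscle myosin light chain, was at 511, 813, 310 and 359 CPM in 1C and 1530, 1730 and 1030 CPM in vehicle (-1.52 ± 0.36, edgeR adjusted p = 0.251). Actn3, the Z-disc actinin of fast fibers, was at 3300, 3100, 3010 and 3390 CPM against 5660, 6880 and 4880 CPM. The 2 that were higher were the cardiac and fetal actin Actc1 (237, 176, 1190 and 702 against 104, 151 and 69.2 CPM) and Mybph (4.17, 6.68, 10.2 and 32.5 against 4.69, 3.07 and 1.58 CPM). Actc1 did not overlap with vehicle and Mybph did. The summed sarcomere level was 90240, 126900, 96060 and 118400 CPM in 1C and 172200, 171100 and 119100 CPM in vehicle, and the part of the other tissues described above in these shares of a library was not tested.

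Mitochondrial respiratory genes showed a small, shared offset. Of 57 tested, 55 had a negative log2 fold change with a median of -0.30, but 0 were lower and 1 higher at p under 0.05 in edgeR, and DESeq2 called 0. Without vehicle mouse 3, 5 of 57 were lower, where 1569 of all 14343 genes tested were. Without 1C mouse 2, 2 of 57 were lower, where 897 of all 14335 were. Neither count stood above the share over all genes in its setting. Their summed level was 15480 to 28930 CPM in 1C and 17270 to 31170 CPM in vehicle. Of 16 myogenic regulators, 1 was lower, Cdh15, the cadherin of satellite cells (16.5 to 27.6 against 27.3 to 48.5 CPM), and the groups overlapped. Without vehicle mouse 1, 0 were lower, and without 1C mouse 2 or vehicle mouse 2, 2 were.

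A few clock genes differed in each direction. Of 17 tested, 2 were higher and 3 lower at p under 0.05, all without overlap, and 1 was lower without 1C mouse 1 or 4 or vehicle mouse 1. In 1 fit of all 31 libraries 1 was higher and 1 lower. The shares over all genes were 6.82% higher and 5.73% lower, and counts this small are not read as a result about the list. Per2, a repressor of the clock, was at 27.5, 69, 16.1 and 32.5 CPM in 1C and 6.96, 11.2 and 14.4 CPM in vehicle, and Nr1d1, a receptor with its own daily rhythm, at 154, 99, 148 and 210 CPM against 342, 234 and 301 CPM. The hour of collection is not given in the labels, so time of day and treatment cannot be told apart for these genes.

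The remaining genes with the largest negative differences or smallest p were Ctxn3, a small membrane protein (39.1, 50.5, 27 and 33.3 against 105, 127 and 90.6 CPM, -1.52 ± 0.22, edgeR adjusted p = 0.246), the amino acid transporter Slc43a1 (15.2 to 17.7 against 30.4 to 40.9 CPM), Klhdc1 (16.2 to 21.3 against 34.2 to 38.6 CPM), and the endothelial genes Apold1 (2.69 to 6.12 against 11 to 15.1 CPM) and Bcl6b (7.19 to 13.9 against 23.8 to 38.9 CPM). None of these overlapped. Of 15 endothelial markers, 1 was lower at p under 0.05, Cldn5 of the tight junction (10.6 to 27.3 against 29 to 43.2 CPM), and 3 were without 1C mouse 2 or vehicle mouse 3 and 0 without 1C mouse 4 or vehicle mouse 1. Otub2, Prss55, 2310015B20Rik and Mir707 complete the 12 largest negative differences.

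Several of the largest positive differences rested on 1C mouse 1. Gm12888 was at 1700, 3.29, 43.3 and 0.43 CPM in 1C mice 1 to 4 and at most 0.326 CPM in vehicle. Agr2, a secretory pathway protein of glands, was at 332, 0.548, 6.38 and 0.334 CPM, the fibrinogen chain Fgg at 212, 0.797, 6.79 and 0.0477 CPM, and Slc27a2, a fatty acid transporter on the brown fat list, at 359, 1.2, 13.5 and 18.9 CPM. DESeq2 gave none of these 4 an adjusted p. RPC mouse 3 had 970, 199, 90.9 and 233 CPM of them. The salivary protein Dmbt1 was also highest in mouse 1 (173 CPM), while the salivary amylase Amy1 was highest in mouse 3 (10700 CPM, against 76.8 to 383 CPM in the other three), and of 13 salivary genes tested edgeR found 0 at p under 0.05 in either direction, as DESeq2 called 0. Without 1C mouse 3, 5 of 11 were lower, without vehicle mouse 1, 3 of 13 were lower, and their median log2 fold change turned from -2.27 to 1.14 without vehicle mouse 2. A4gnt, Slc23a1, Mfi2, Cyp3a57 and 3110079O15Rik, a cartilage gene now named Snorc, complete the 12 largest positive differences.

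A list of 29 genes was taken from the study's text on 0.2U Col, and all 29 had p under 0.05 here, 27 higher and 2 lower, with 15 and 2 of them apart from vehicle. That list was chosen on these samples and is no independent evidence. Its median log2 fold change was 4.10, or 3.80 with genes at or near 0 in vehicle set to their bound or count ratio. By edgeR with adjustment over all genes 0 passed, and DESeq2 called 18 of the higher and 2 of the lower genes.

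**Figure D5:**
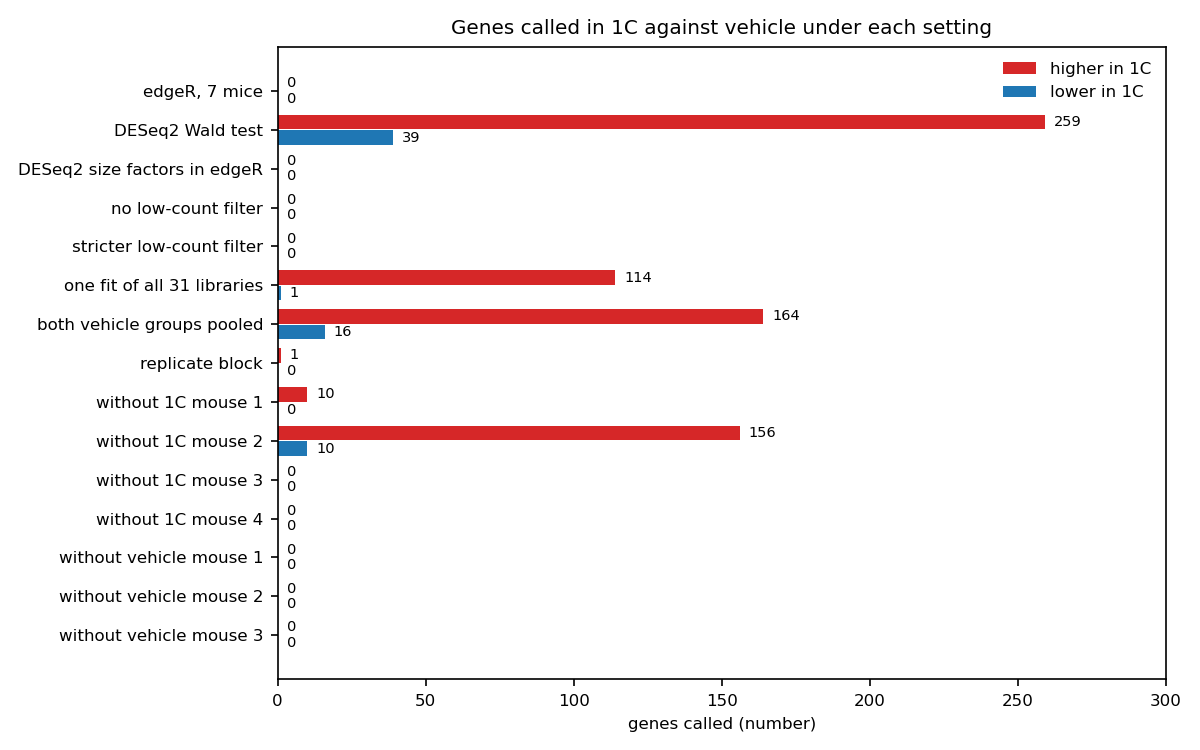
Bars give the number of genes called in 1C against vehicle under each setting, with higher genes in red and lower genes in blue and each number printed at its bar. edgeR with all 7 mice called 0, removal of 1C mouse 2 gave 156 and 10, and DESeq2 gave 259 and 39.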

How the data were processed

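MM was dissected from 1 mouse per library, and stranded poly(A) libraries were read from a single end over 50 bases. The submitters' processing notes name TopHat2, HTSeq and mm9, and the authors deposited raw counts per gene symbol, with 1 table for each library; versions and the counting annotation are not given in the sources used here. The 5 closing lines of each table were left out, and reads on no gene were 18.1% to 22.5% of uniquely aligned reads in 1C and 11.5% to 20.9% in vehicle.

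Counts were tested with edgeR 4.0.16 in R 4.3.3: genes with 10 counts in 3 libraries, TMM, a quasi-likelihood fit with group as the only term, and Benjamini-Hochberg adjustment over all genes tested. DESeq2 1.42.0, the study's tool, was the first alternative. A call required an adjusted p under 0.05, more than a 2-fold difference and, in either group, a mean above 1 RPKM. Exon lengths came from GENCODE vM1, with the median of 2839 bases for 897 symbols without a model. Printed levels are CPM scaled by TMM over all 31 libraries. Each SE was taken as the size of the log2 fold change over the root of F. Intervals of count ratios are exact binomial intervals (95%).

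Groups came from the labels. Named genes were the 12 largest positive and 12 largest negative differences without overlap (p under 0.05, mean RPKM over 1), the 5 smallest p in each direction, all genes of 3 lists (the study's genes, uncoupling proteins, elongases), and from other lists up to 4 with the largest change and 2 with the highest level. Members and lists were chosen with earlier results of these data known. The alternatives were DESeq2, its size factors in edgeR, no and a stricter count filter, no RPKM threshold, 1 fit of 31 libraries, pooled vehicle groups, the replicate number as a block, and each mouse left out. The fit was tested on simulated data.

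Counting error alone limits genes near the filter, and strand use in counting is unknown, so genes with a neighbour on the opposite strand (such as Col10a1, Elovl3, Far2, Cidea, Amelx, Slc25a25 and Nr1d1) may hold reads of it. The mm9 positions of the leading genes are chromosome 10 from 34109787 to 34116891 for Col10a1, chromosome 8 from 85814247 to 85822355 for Ucp1, chromosome 9 from 83672300 to 83699912 for Elovl4 and chromosome 15 from 101097277 to 101105223 for Nr4a1; values cover whole genes.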

Additional observations from a re-analysis of the deposited data

Results flagged for a closer look

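In 206 sets of 4 mice that were examined, 1 mouse stood apart from the other three by more than Dixon's critical value in 22 (10.7%). For independent, normally distributed values chance flags about 1 in 20. These sets share the same mice and hold genes picked for large differences, so no excess over chance can be read from them. For 1C the mouse that stood apart was mouse 1 for Slc27a2 (359 CPM), Gm12888 (1700 CPM), Fgg (212 CPM), Agr2 (332 CPM), A4gnt (18.3 CPM), Slc23a1 (62.0 CPM) and Dmbt1 (173 CPM), all high, and for Col1a1 (1310 CPM), low. Mouse 2 stood apart with a low summed level of the hair follicle and sebaceous list (31 CPM) and high values of Col2a1 (182 CPM), Bglap (47.1 CPM), S100a9 (483 CPM) and Myh7 (2.29 CPM). Mouse 3 stood apart with a high summed mast cell level (63.28 CPM) and high values of Odam (5.6 CPM), Ccl9 (69.5 CPM), Dcpp2 (25.8 CPM), Dcpp1 (714 CPM) and Amy1 (10700 CPM). In RPC, mouse 2 stood apart for Amelx (2660 CPM) and Col10a1 (1.34 CPM), and mouse 3 for Agr2 (199 CPM). What set these mice apart was not tested.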

How the results depend on the processing

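The count of genes called in 1C against vehicle was 0 with DESeq2's size factors in edgeR and with either count filter, and dropping the RPKM threshold added none. DESeq2 gave 259 higher and 39 lower, 1 fit of all 31 libraries 114 and 1, and both vehicle groups pooled 164 and 16. With each mouse left out in turn the counts ran from 0 to 156 higher and from 0 to 10 lower. Genes at an unadjusted p under 0.05 numbered 1830 higher and 1629 lower with both vehicle groups pooled, and 556 to 1699 higher and 341 to 1569 lower with a mouse left out. For 1C against RPC, DESeq2 gave 144 higher and 61 lower, the fit of all libraries 66 and 7, and leaving out a mouse 0 to 116 and 0 to 3. The cause of these differences was not tested.

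Replicate numbers are shared by different mice, and the deviations of same-numbered mice correlated at -0.33, -0.33 and 0.36, so they do not pair the mice. With the replicate block, 1 gene was called higher and 0 lower, 622 were higher and 648 lower at an unadjusted p under 0.05, and 0 were called against RPC.

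Among 151 genes named or examined, DESeq2 gave 83 an adjusted p under 0.05, the fit of all libraries 31, pooled vehicles 49, removal of 1C mouse 2 40 of 142 and removal of 1C mouse 1 5 of 139. With pooled vehicles the log2 fold change turned to 0.28 for Ucp3, -0.10 for Slc25a14 and 0.73 for Zic1, and with the replicate block to 0.34 for Zic1 and 0.054 for Odam. With a mouse left out it ran from -0.28 to 0.29 for Ucp3, -0.075 to 0.34 for Slc25a14, -0.37 to 0.63 for Zic1, -0.14 to 1.03 for Col1a2, -0.12 to 0.45 for Csf1r, -0.74 to 1.72 for S100a9 and -0.74 to 0.14 for Myh1. The sign of the list median changed in 3 of 37 lists with pooled vehicles, 2 with the block, 1 with the stricter filter and at most 4 with a mouse left out.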
